A study of Mus musculus with 19 samples.

Results

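The aminoacyl-tRNA synthetases are the enzymes that load each tRNA with its amino acid. The 36 genes described here were chosen by symbol, 20 for cytosolic and 16 for mitochondrial enzymes, and each stood once among the 52110 named entries of a liver RNA-seq table. Levels are FPKM, fragments per kilobase of gene scaled by the mapped fragments of the sample, so that values of different genes can be set side by side. Of the 36 genes, 31 had a mean of at least 1 FPKM over all samples and were tested, 20 cytosolic and 11 mitochondrial.

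The samples were livers of wild-type mice in 4 groups of a diet by treatment design. CDAHFD RIC (n = 4) and CDAHFD sham (n = 5) came from mice on a choline-deficient diet high in fat, with its protein replaced by defined amino acids, which is used to induce steatohepatitis. NC RIC (n = 5) and NC sham (n = 5) came from mice on normal chow. RIC is remote limb ischemic conditioning, in which blood flow to a limb is interrupted for short periods, and sham mice underwent the control procedure. The labels used here state no strain, sex, age, feeding time or schedule of RIC. They number the samples as replicates without tying each to its own mouse, and a p-value therefore reflects only how these samples vary, which may be technical.

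A synthetase activates its amino acid with ATP and transfers it to the matching tRNA, and several of these enzymes also remove wrongly attached amino acids. Most amino acids have a cytosolic and a separate mitochondrial enzyme, both encoded in the nucleus, while Gars and Kars each supply both compartments from one gene. Eprs carries the glutamyl and prolyl activities on one chain, and Farsa and Farsb are the subunits of one cytosolic phenylalanyl enzyme, whereas Fars2 acts alone in mitochondria. Mammals have no mitochondrial glutaminyl enzyme: Ears2 first loads glutamate, which an amidotransferase made from Gatb, Gatc and Qrsl1 then converts. Many cytosolic synthetase genes are known targets of ATF4, the transcription factor of the amino acid response, which binds an amino acid response element together with C/EBP proteins. In liver these enzymes serve a tissue that makes most plasma proteins.

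Promoter stretches are shown for the genes on which the diet comparison turns and for the members that hold an amino acid response element. Of the 36 genes, 27 had a promoter entry in the RefSeq table of build GRCm38.p6, which covers 250 bases before and 50 bases from the annotated start. The letters TGATGNAA were searched on both strands. They were found in 5 of 13 cytosolic promoters (Gars, Tars, Aars, Iars and Yars) and in 0 of 14 mitochondrial promoters, against 4.06% of all 27025 promoters in the table. The first 3 lines give the 100 bases before the start, and the other lines give 30 bases around an element, all 5′ to 3′ on the strand of the gene, with the element in capitals. The element lay 30 bases before the start in Gars and 15 bases before it in Tars, and the same stretch of Tars2 held none. Aars also held another match, 112 bases before its start, which is not shown.
Gars, chr6:55037901-55038000, plus strand: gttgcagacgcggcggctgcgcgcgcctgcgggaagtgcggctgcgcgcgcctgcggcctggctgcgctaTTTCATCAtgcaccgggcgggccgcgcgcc
Tars, chr15:11399659-11399758, minus strand: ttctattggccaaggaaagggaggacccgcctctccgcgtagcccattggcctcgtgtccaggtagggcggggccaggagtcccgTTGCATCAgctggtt
Tars2, chr3:95754978-95755077, minus strand: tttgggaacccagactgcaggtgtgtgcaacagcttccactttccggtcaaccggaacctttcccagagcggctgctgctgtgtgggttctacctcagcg
Aars, chr8:111033840-111033869, plus strand: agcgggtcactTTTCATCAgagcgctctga
Iars, chr13:49682126-49682155, plus strand: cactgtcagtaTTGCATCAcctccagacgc
Yars, chr4:129189895-129189924, plus strand: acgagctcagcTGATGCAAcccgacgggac

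A match is a description of these letters, not a measured binding site. The matches lay on the strand opposite to the gene in Gars, Tars, Aars and Iars and on the strand of the gene in Yars. The CCAAT box (CCAAT) was found in 7 of 13 cytosolic and 6 of 14 mitochondrial promoters, against 37.9% of all promoters. TATAAA was found in 1 cytosolic promoter (Farsa) and in 2 mitochondrial promoters (Tars2 and Aars2), against 14.2% of all promoters.

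Cytosolic enzymes supplied most of the synthetase RNA in every group. Their summed level was 194 ± 14.0 FPKM in CDAHFD RIC, 200.3 ± 9.46 FPKM in CDAHFD sham, 143 ± 12.7 FPKM in NC RIC and 155 ± 12.5 FPKM in NC sham livers (mean ± SD). For the 16 mitochondrial enzymes the sums were 40.0 ± 2.24 FPKM in CDAHFD RIC, 42.7 ± 3.11 FPKM in CDAHFD sham, 27.9 ± 3.20 FPKM in NC RIC and 28.7 ± 1.33 FPKM in NC sham livers. The cytosolic share of both sums together averaged 82.9% in CDAHFD RIC, 82.4% in CDAHFD sham, 83.7% in NC RIC and 84.3% in NC sham livers.

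Dars, the aspartyl enzyme, was the most abundant cytosolic member in NC sham livers at 23.2 ± 1.44 FPKM, ahead of Nars at 16.4 ± 1.99 FPKM and Tars at 15.5 ± 2.16 FPKM. The samples of Dars did not overlap those of Nars, whereas Nars and Tars overlapped. The lowest cytosolic members were Wars, Cars and Vars, at 1.51, 1.44 and 1.37 FPKM, with overlapping samples. In CDAHFD sham livers the order was another: Gars led at 24.9 ± 1.56 FPKM, Nars followed at 22.2 ± 1.65 FPKM and Dars at 18.8 ± 2.85 FPKM, and Wars was lowest at 2.52 ± 0.389 FPKM. Iars2, the mitochondrial isoleucyl enzyme, was the highest of its class in all 4 groups, at 9.45, 9.16, 4.99 and 5.35 FPKM in CDAHFD RIC, CDAHFD sham, NC RIC and NC sham livers.

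Sars2, Mars2, Lars2, Wars2 and Pars2 stayed under the filter, with means over the 19 samples of 0.942, 0.704, 0.641, 0.615 and 0.445 FPKM. Pars2, the mitochondrial prolyl enzyme, was the lowest of all, at 0.697 ± 0.429 FPKM in CDAHFD RIC, 0.481 ± 0.376 FPKM in CDAHFD sham, 0.421 ± 0.250 FPKM in NC RIC and 0.232 ± 0.189 FPKM in NC sham livers. These values lie within the spread of the samples.

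**Figure D1:**
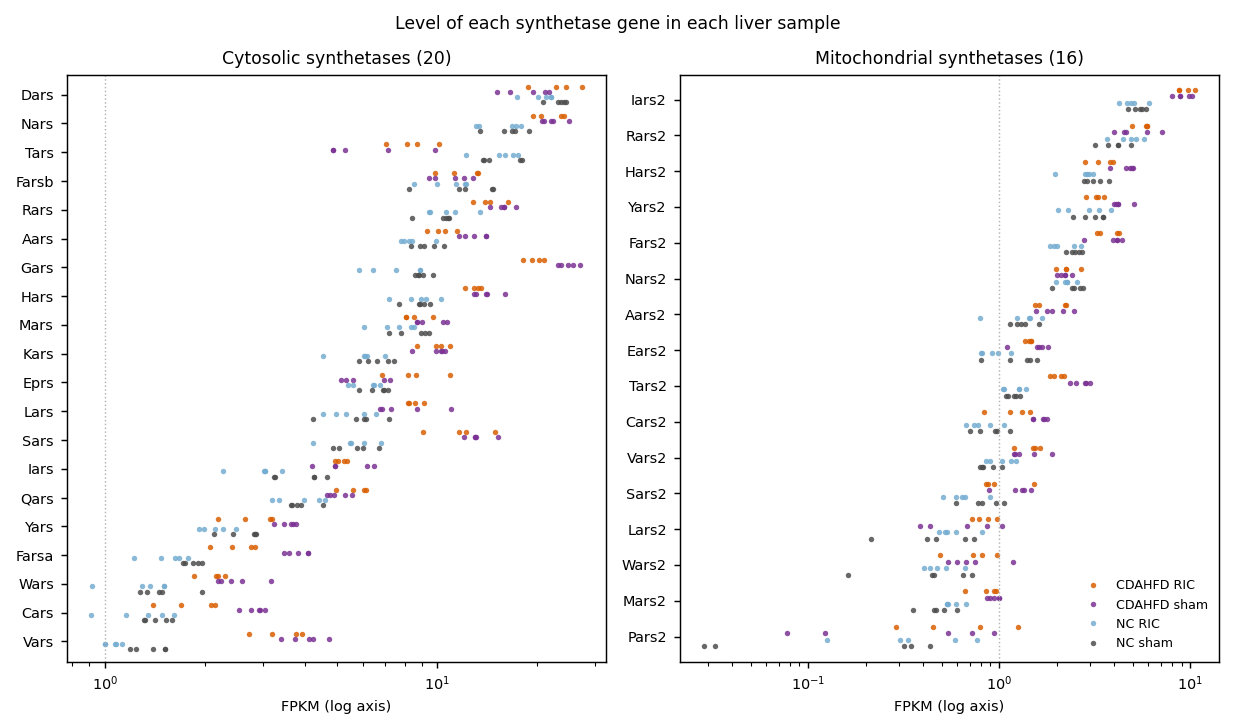
FPKM on a log axis of the 20 cytosolic genes (left) and the 16 mitochondrial genes (right), with each point 1 liver sample, coloured by group, genes ordered by their mean in NC sham livers, and the dotted line at 1 FPKM, the filter on the mean. Tars stands out as the member whose CDAHFD samples lie to the left of its NC samples, and the 5 lowest mitochondrial genes have means under 1 FPKM.

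The samples behind these values were estimated to hold between 15.9 and 26.4 reads each, in units of 1e6. This estimate is weak. It was read from the step between low values, and only 16.8% to 19.9% of these lay near whole multiples of that step. Hepatocyte markers had the highest summed level of the marker lists, 38425 FPKM in CDAHFD sham and 54238 FPKM in NC sham livers. The sums over all entries were 471476 and 490879 FPKM. Of the 12 hepatocyte markers, 10 were lower on CDAHFD, where 10.3% of all tested genes were lower. Macrophage markers (12 of 12 higher, sums of 1076 and 95.3 FPKM in CDAHFD sham and NC sham livers) and stellate and fibroblast markers (8 of 8 tested higher, 159 and 24.8 FPKM) moved the other way, as did cholangiocyte markers (3 of 3), endothelial markers (6 of 7) and proliferation markers (3 of 4). Over all tested genes 63.9% were higher in this comparison. In CDAHFD RIC against CDAHFD sham livers, 4 hepatocyte markers were higher and 1 lower, 4 stellate and fibroblast markers and 3 proliferation markers were lower, and 1 macrophage marker was higher. Here 8.72% of all tested genes were higher and 18.6% lower. Lymphocyte, pancreatic acinar and skeletal muscle markers were under the filter, at sums of at most 7.99, 2.96 and 1.17 FPKM in any sample. In whole liver, fewer cells of a type and less RNA per cell cannot be told apart, and the part of these shifts in the synthetase values was not tested.

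Feeding CDAHFD was followed by higher synthetase RNA for most members, with one strong exception. Of the 20 cytosolic genes, 15 were higher and 2 lower in CDAHFD sham than in NC sham livers, and of the 11 tested mitochondrial genes 9 were higher and 0 lower (limma on log2(FPKM + 1), Benjamini-Hochberg adjusted p under 0.05 over 10577 genes). The background was as large: 74.2% of all tested genes passed, 63.9% higher and 10.3% lower. The median log2 difference was 0.43 for cytosolic and 0.38 for mitochondrial genes, beside 0.45 for all tested genes, so the classes as a whole moved like the rest of the table. Median-ratio scaling brought the median of all tested genes to -0.05, and with it 5 cytosolic genes were higher and 6 lower, and 1 mitochondrial gene was higher and 1 lower. Among members, 5 kept their direction and their call under every alternative in which they were tested: Gars, Sars, Vars and Tars2 were higher and Tars was lower. A filter of 5 FPKM left Vars and Tars2 untested.

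Tars, the cytosolic threonyl enzyme on chr15:11382301-11399665, fell most. Its FPKM were 5.28, 9.89, 4.88, 4.86 and 7.14 in the CDAHFD sham samples, against 14.3, 18.05, 13.9, 13.7 and 17.7 in the NC sham samples. The groups did not overlap, and even the highest CDAHFD sham sample stayed under every NC sham sample. The mean of 6.41 ± 2.16 FPKM in CDAHFD sham livers was 2.42-fold lower than the 15.5 ± 2.16 FPKM in NC sham livers, a log2 difference of -1.19 ± 0.15 (SE, limma adjusted p = 1.21e-06). Relative to the bulk of genes the fall was larger, -1.77 with median-ratio scaling. Dars was also called lower, at 18.8 ± 2.85 FPKM in CDAHFD sham and 23.2 ± 1.44 FPKM in NC sham livers (log2 difference -0.30 ± 0.11, limma adjusted p = 0.0169). Its groups overlapped, and the call was lost with a common sum per sample (-0.24) and without CDAHFD sham replicate 1 (-0.23, limma adjusted p = 0.0567).

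Gars, the glycyl enzyme on chr6:55038007-55079500, rose most on the log2(FPKM + 1) scale. By the fold of group means Vars, a gene of lower level described below, rose more. Gars had 25.8, 23.2, 26.98, 23.6 and 24.8 FPKM in the CDAHFD sham samples, against 9.72, 8.80, 8.58, 9.07 and 8.77 FPKM in the NC sham samples. The groups were far apart and each was tight. The rise was 2.77-fold (log2 difference 1.37 ± 0.09, limma adjusted p = 2.61e-10), and 0.75 remained with median-ratio scaling. Sars, the seryl enzyme on chr3:108424865-108445209, had 15.3, 12.0, 13.1, 13.0 and 13.0 FPKM in CDAHFD sham samples and 6.70, 5.06, 4.86, 5.73 and 5.998 FPKM in NC sham samples. Here too no samples overlapped, with a 2.34-fold rise (log2 difference 1.10 ± 0.12, limma adjusted p = 1.23e-07).

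Vars, the valyl enzyme on chr17:35000987-35016322, changed its place from the lowest cytosolic member. Its FPKM were 4.11, 3.39, 4.73, 3.73 and 4.24 in CDAHFD sham samples, against 1.40, 1.52, 1.20, 1.24 and 1.52 in NC sham samples, a 2.94-fold rise (log2 difference 1.08 ± 0.09, limma adjusted p = 1.83e-09). Gars and Tars hold the amino acid response element shown above and moved in opposite directions. The promoter of Vars was not examined, nor were those of Cars, Hars, Lars, Nars, Rars, Wars, Hars2 and Pars2. The other holders, Aars (0.44), Iars (0.36) and Yars (0.34), had log2 differences near the median of all genes, and each turned negative with median-ratio scaling.

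The cytosolic phenylalanyl enzyme showed unequal subunits. Farsa, the catalytic subunit, had 4.10, 3.598, 4.11, 3.46 and 3.82 FPKM in CDAHFD sham samples and 1.74, 1.84, 1.96, 1.90 and 1.73 FPKM in NC sham samples. Farsb, the other subunit, averaged 11.1 ± 1.41 FPKM in CDAHFD sham and 12.3 ± 2.67 FPKM in NC sham livers. Farsa was 2.08-fold higher (log2 difference 0.76 ± 0.08, limma adjusted p = 5.05e-08), while Farsb did not pass (-0.12 ± 0.14, limma adjusted p = 0.454). The Farsb to Farsa ratio of FPKM was 2.92 ± 0.463 in CDAHFD sham and 6.75 ± 1.68 in NC sham livers, with ranges of 2.31 to 3.56 and 4.20 to 8.53 that did not overlap. A factor common to a sample does not change this ratio. Farsa lost its call after correction for GC content and length (0.09, limma adjusted p = 0.208), and Farsb was then lower (-0.55, limma adjusted p = 0.000746).

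Most cytosolic members lay between these extremes. Cars, the cysteinyl enzyme, rose 1.97-fold (2.83 ± 0.192 FPKM in CDAHFD sham and 1.44 ± 0.125 FPKM in NC sham livers), a call that was lost with quantile normalization (0.11) and after GC and length correction (0.03). The genes Hars, Rars, Kars, Wars, Aars, Nars, Lars, Iars, Yars and Qars had log2 differences of 0.30 to 0.62, and none of these 10 was called higher with median-ratio scaling, quantile normalization or GC and length correction. Under the first of these Hars and Wars stayed above 0 (0.01 and 0.06) and the other 8 were negative, Qars at -0.23, Nars at -0.21, Lars at -0.17, Kars at -0.07 and Rars at -0.02 among them. Qars was called lower under all 3, as was Mars (-0.45, -0.33 and -0.50), which did not pass as reported (0.15). Wars, the tryptophanyl enzyme and a gene known to be induced by interferon gamma, was at 2.52 ± 0.389 FPKM in CDAHFD sham and 1.51 ± 0.271 FPKM in NC sham livers (0.49 ± 0.10, limma adjusted p = 0.000132). Mars (0.15) and Eprs (-0.12) did not pass. With median-ratio scaling, quantile normalization or GC and length correction, Eprs was lower on CDAHFD (-0.69, -0.62 and -0.50).

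Members of the multi-synthetase complex and the free enzymes are given side by side as a description, with no test of a difference. The 8 complex enzymes (Dars, Eprs, Iars, Kars, Lars, Mars, Qars and Rars) had a median log2 difference of 0.33, with 5 higher and 1 lower. The 12 cytosolic genes outside the complex had a median of 0.55, with 10 higher and 1 lower, and they include all 4 of the largest changes. Over all tested genes the median was 0.45 and 63.9% were higher, so the count of complex enzymes higher (5 of 8) was close to that share. No complex member had a difference above 0.59 (Rars).

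**Figure D2:**
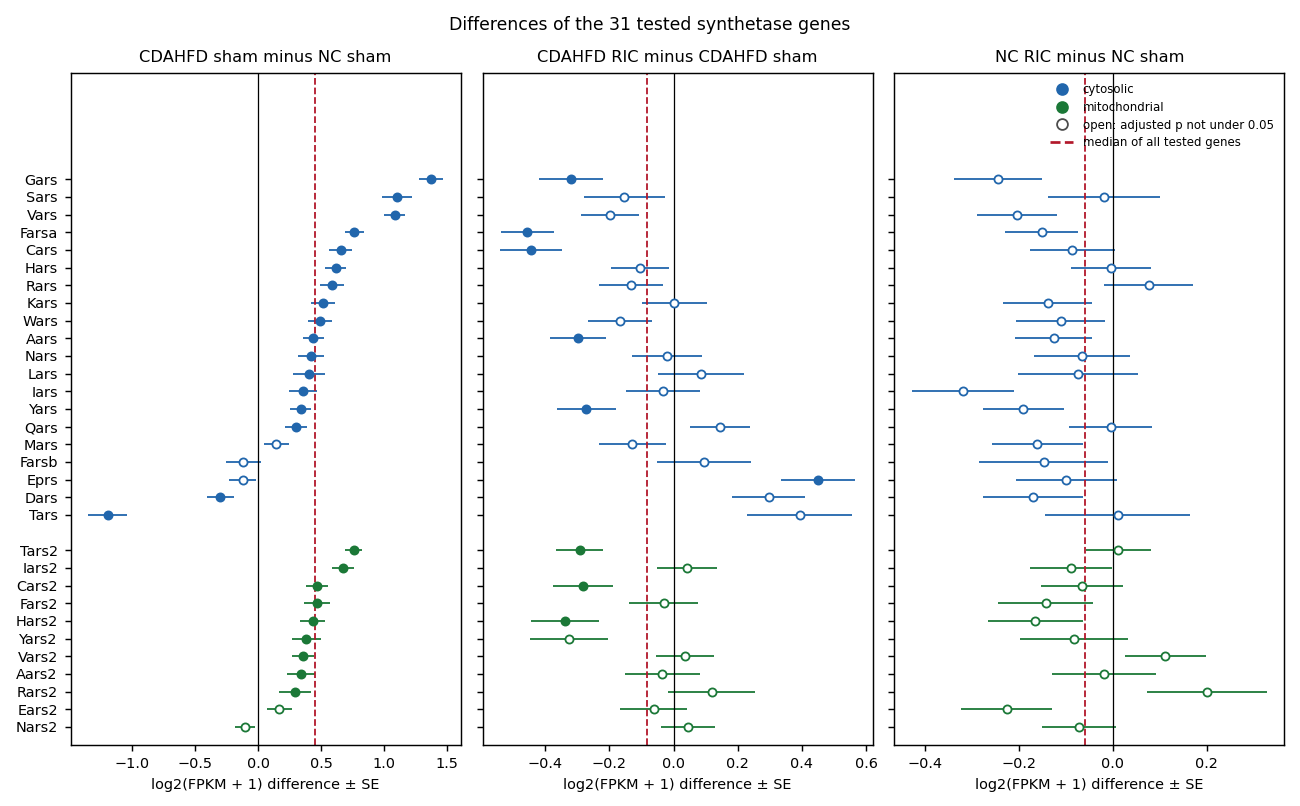
Log2(FPKM + 1) difference with its SE for the 31 tested genes (rows; cytosolic in blue, mitochondrial in green) in 3 comparisons (columns), filled where the adjusted p was under 0.05, with the dashed line at the median of all tested genes. On the left Gars, Sars and Vars lie above 1 and Tars at -1.19, in the middle Eprs is the 1 filled point to the right of 0, and on the right no point is filled.

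Among the mitochondrial enzymes Tars2 changed most, opposite to its cytosolic counterpart. Tars2, the mitochondrial threonyl enzyme on chr3:95739976-95760206, had 2.98, 2.33, 2.82, 2.52 and 2.83 FPKM in CDAHFD sham samples, against 1.19, 1.29, 1.23, 1.12 and 1.09 FPKM in NC sham samples. No samples overlapped, and the rise was 2.28-fold (log2 difference 0.76 ± 0.07, limma adjusted p = 1.32e-08). It stayed past the threshold with every scaling, at 0.22 to 0.33 with median-ratio scaling, quantile normalization and GC and length correction.

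The next mitochondrial genes were Iars2, Cars2, Fars2 and Hars2. Iars2 rose 1.71-fold, with 9.16 ± 0.870 FPKM in CDAHFD sham and 5.35 ± 0.439 FPKM in NC sham livers (log2 difference 0.68 ± 0.09, limma adjusted p = 1.24e-06). Of its exonic bases 24.2% are shared with other genes, mainly Rab3gap2 on the opposite strand, and no source used here states whether counting kept strand, which leaves part of its reads uncertain. Cars2 averaged 1.64 ± 0.124 FPKM in CDAHFD sham and 0.911 ± 0.170 FPKM in NC sham livers, a log2 difference of 0.47. Fars2 averaged 3.87 ± 0.631 and Hars2 4.63 ± 0.484 FPKM in CDAHFD sham livers, with 2.50 ± 0.182 and 3.17 ± 0.394 FPKM in NC sham livers, at differences of 0.47 and 0.43. Cars2 with quantile normalization, Fars2 and Hars2 with that and with median-ratio scaling, and all 3 after GC and length correction had negative differences. Nars2 (-0.11) and Ears2 (0.17) did not pass, but Nars2 was called lower with median-ratio scaling (-0.55), quantile normalization (-0.64) and GC and length correction (-0.44).

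The cytosolic and the mitochondrial enzyme of one amino acid were compared within each sample. A factor common to a sample leaves the plain ratio of their FPKM as it is, but moves a difference of log2(FPKM + 1) where a partner is near or under 1 FPKM. In 17 such pairings, of which those with Farsa and Farsb share Fars2 and those with Ears2 and Pars2 share Eprs, the log2 of the plain ratio shifted without overlap in 6 between CDAHFD sham and NC sham livers, 4 to higher cytosolic values (Vars 0.88, Sars 0.66, Nars 0.59 and Farsa 0.44) and 2 to lower ones (Tars -2.51 and Mars -0.83). No background of ratios between other genes was computed. Single genes, which a factor common to a sample does move, are an unlike measure: 52.4% of all tested genes were higher and 6.91% lower without overlap in this comparison. The median shift over the 17 pairings was 0.01 for the plain ratio, with 9 positive and 8 negative, and 0.18 for the difference of log2(FPKM + 1). Between NC RIC and NC sham livers the plain ratio was lower without overlap in 2 pairings (Vars to Vars2 -0.60 and Mars to Mars2 -0.46) and higher in 0. Between CDAHFD RIC and CDAHFD sham livers it was higher without overlap in 1 (Eprs to Ears2 0.61) and lower in 1 (Farsa to Fars2 -0.57).

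The threonyl pair stood at the end of that range. The Tars to Tars2 ratio of FPKM was 4.27 ± 0.933 in CDAHFD RIC, 2.44 ± 1.06 in CDAHFD sham, 13.2 ± 2.73 in NC RIC and 13.2 ± 1.99 in NC sham livers. The highest CDAHFD sham sample was at 4.24 and the lowest NC sham sample at 11.3. The seryl, valyl and asparaginyl pairs moved the other way: Sars to Sars2 was 10.97 ± 2.33 in CDAHFD sham and 6.91 ± 1.02 in NC sham livers, Vars to Vars2 2.91 ± 0.397 and 1.57 ± 0.158, and Nars to Nars2 10.2 ± 1.15 and 6.90 ± 1.48. The isoleucyl pair was inverted throughout, since Iars stayed below Iars2 in each of the 19 samples, at a ratio of 0.581 ± 0.0679 in CDAHFD sham and 0.733 ± 0.0838 in NC sham livers.

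**Figure D3:**
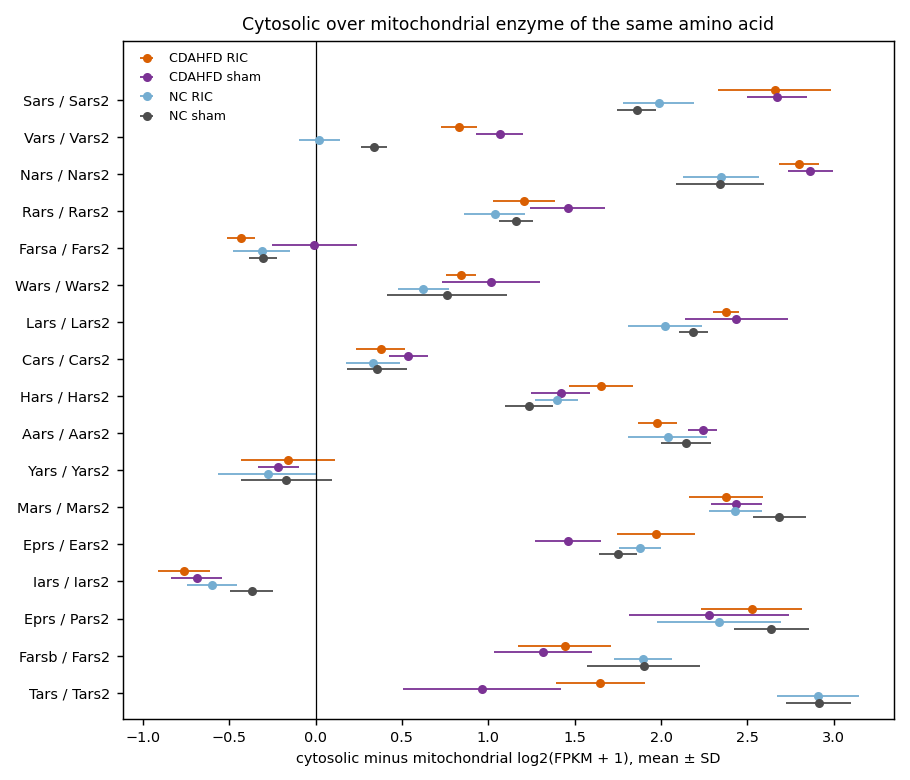
Difference of log2(FPKM + 1) between the cytosolic and the mitochondrial enzyme of the same amino acid (rows), as mean ± SD of the samples of each group (colours), ordered by the shift between CDAHFD sham and NC sham livers, on a scale that a common factor can move where a partner is low. The Tars to Tars2 row shows the largest shift, -1.95, and the Iars to Iars2 row lies left of 0 in every group.

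Conditioning on CDAHFD was followed by small changes, mostly downward. Between CDAHFD RIC and CDAHFD sham livers, 1 cytosolic gene was higher (Eprs) and 5 lower (Farsa, Cars, Gars, Aars and Yars), and 0 mitochondrial genes were higher and 3 lower (Hars2, Tars2 and Cars2). Over all tested genes 27.3% passed, 8.72% higher and 18.6% lower, so that the share of members lower (8 of 31) was not far from the background. Without overlap, 5 cytosolic and 3 mitochondrial genes (Yars2, which did not pass, among them) were lower and 0 were higher, where 13.1% of all tested genes were lower and 5.26% higher. The median log2 difference was -0.12 for cytosolic and -0.03 for mitochondrial genes, beside -0.08 for all tested genes. Farsa, Cars and Tars2 kept their call under every alternative in which they were tested, which leaves out the filter of 5 FPKM.

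Farsa had 2.08, 2.75, 2.42 and 2.83 FPKM in the CDAHFD RIC samples, all below the 3.46 to 4.11 FPKM of the CDAHFD sham samples. The mean of 2.52 ± 0.343 FPKM in CDAHFD RIC livers was 1.52-fold lower than the 3.82 ± 0.290 FPKM in CDAHFD sham livers (log2 difference -0.46 ± 0.08, limma adjusted p = 0.000882). Cars had 2.08, 1.70, 1.39 and 2.15 FPKM in CDAHFD RIC samples, again all below the 2.54 to 3.03 FPKM of CDAHFD sham samples (-0.44 ± 0.10, limma adjusted p = 0.00342). Tars2 had 1.85, 2.10, 1.94 and 2.17 FPKM in CDAHFD RIC samples, against 2.33 to 2.98 FPKM in CDAHFD sham samples (-0.29 ± 0.07, limma adjusted p = 0.00778). In Farsa and Tars2 every CDAHFD RIC sample also lay above every NC sham sample, while the lowest Cars sample, at 1.39 FPKM, fell among the NC sham samples.

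Gars averaged 19.7 ± 1.28 FPKM in CDAHFD RIC and 24.9 ± 1.56 FPKM in CDAHFD sham livers, 1.26-fold lower without overlap (-0.32 ± 0.10, limma adjusted p = 0.0241). Aars, the alanyl enzyme, averaged 10.4 ± 0.907 FPKM in CDAHFD RIC and 13.0 ± 1.11 FPKM in CDAHFD sham livers (-0.30 ± 0.09, limma adjusted p = 0.0178). Of the exonic bases of Aars 15.1% are shared with other genes, mainly Exosc6 on the same strand. Yars (-0.27, limma adjusted p = 0.0336), Hars2 (-0.34, limma adjusted p = 0.0257) and Cars2 (-0.28, limma adjusted p = 0.0315) were close to the threshold. Gars, Aars, Yars, Hars2 and Cars2 lost their calls with median-ratio scaling (-0.21, -0.19, -0.17, -0.23 and -0.19), where the median of all tested genes was 0.01. Each of the 5 also lost its call when CDAHFD RIC replicate 3 was left out, which brought the cytosolic genes called to 3 and the mitochondrial to 1.

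Eprs went against this direction. It had 10.9, 8.66, 8.21 and 6.83 FPKM in CDAHFD RIC samples, against 5.13, 7.20, 5.31, 5.595 and 6.94 FPKM in CDAHFD sham samples. Only the lowest CDAHFD RIC sample fell among the CDAHFD sham samples. The mean of 8.65 ± 1.70 FPKM in CDAHFD RIC livers was 1.43-fold higher than the 6.04 ± 0.964 FPKM in CDAHFD sham livers (log2 difference 0.45 ± 0.11, limma adjusted p = 0.00856). The call was lost when the spread was taken from these groups alone (limma adjusted p = 0.0501).

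Dars and Tars had positive differences that did not pass. Dars was at 27.3, 22.8, 24.4 and 18.8 FPKM in CDAHFD RIC samples, against 15.2, 21.8, 16.6, 19.4 and 21.1 FPKM in CDAHFD sham samples (0.30 ± 0.11, limma adjusted p = 0.0585). Tars was at 10.2, 8.69, 8.13 and 7.03 FPKM in CDAHFD RIC samples, beside a mean of 6.41 ± 2.16 FPKM in CDAHFD sham livers (0.39 ± 0.16, limma adjusted p = 0.0795). In both genes the groups overlapped, and CDAHFD sham replicates 2 and 5 were the highest of their group. Both passed with median-ratio scaling (Dars 0.40, Tars 0.48) and quantile normalization (Dars 0.37, Tars 0.49), and Dars also with a common sum per sample (0.40) and after GC and length correction (0.29).

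**Figure D4:**
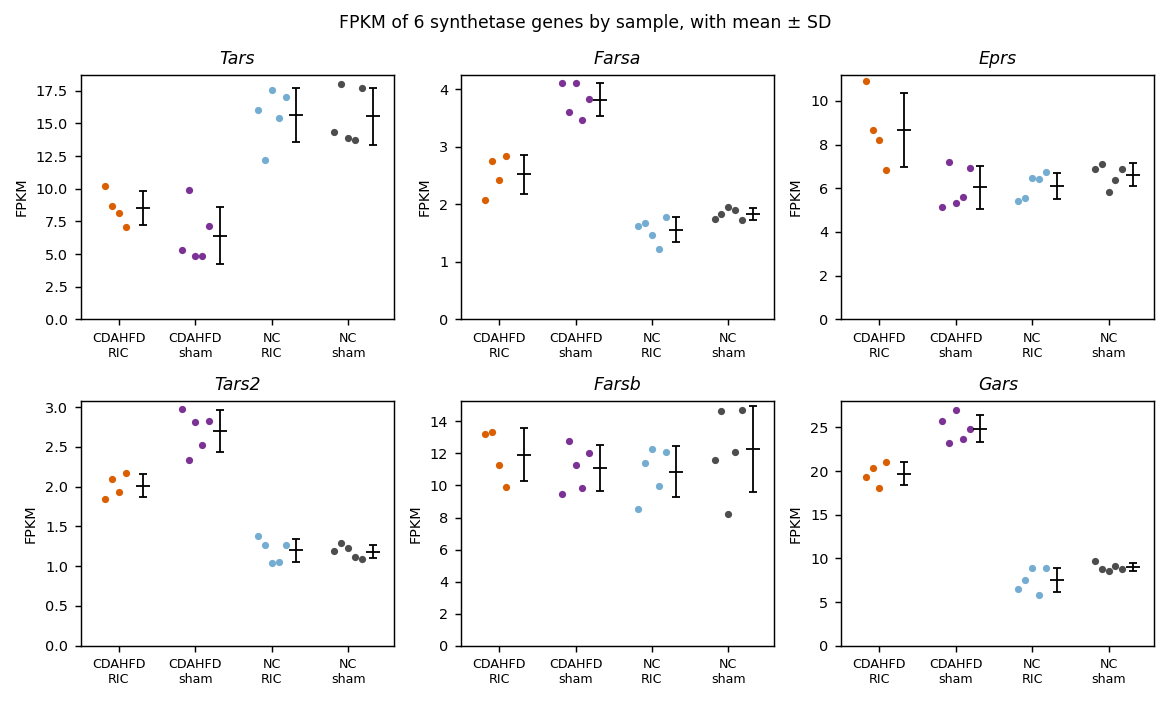
FPKM of Tars, Farsa, Eprs, Tars2, Farsb and Gars in each sample (points) with the mean ± SD of the group (bars) for CDAHFD RIC, CDAHFD sham, NC RIC and NC sham livers, on axes that start at 0. Tars is low and Tars2, Farsa and Gars are high in the CDAHFD groups, Farsb overlaps among all groups, and Eprs is highest in CDAHFD RIC livers.

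In mice on normal chow no synthetase gene passed between NC RIC and NC sham livers (limma, 0 of 31), where 1.18% of all tested genes passed, 0.321% higher and 0.86% lower. At an unadjusted p under 0.05, 5 members were lower and 0 higher: Iars (-0.32), Gars (-0.25), Ears2 (-0.23), Vars (-0.20) and Yars (-0.19). Over all 10577 tested genes 1365 were lower and 382 higher at this unadjusted threshold, a share near that of the members. Iars averaged 2.95 ± 0.417 FPKM in NC RIC and 3.94 ± 0.653 FPKM in NC sham livers, and its samples overlapped. Vars was the single member whose groups did not overlap, with at most 1.13 FPKM in NC RIC samples and 1.20 to 1.52 FPKM in NC sham samples. Over all tested genes 3.75% were lower and 0.993% higher without overlap. The amino acid response genes described below were negative for 15 of 15 tested in this comparison, where 6850 of all 10577 tested genes were negative, and 1 of the 15 passed as lower (Atf5, -0.84). Tars averaged 15.7 ± 2.09 FPKM in NC RIC and 15.5 ± 2.16 FPKM in NC sham livers.

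The effect of RIC was set against diet by the interaction, the difference between CDAHFD RIC and CDAHFD sham minus that between NC RIC and NC sham. Eprs was the single member to pass, at 0.55 ± 0.16 (limma adjusted p = 0.0429), where 6.72% of all tested genes passed, 3.59% with a positive and 3.13% with a negative value. Eprs had 8.65 ± 1.70 and 6.04 ± 0.964 FPKM in CDAHFD RIC and CDAHFD sham livers, and 6.12 ± 0.592 and 6.62 ± 0.521 FPKM in NC RIC and NC sham livers. Its call was lost in 13 of the 19 fits that left out 1 sample, where its adjusted p reached 0.0798, so it stands at the edge of the threshold. It was also lost with no filter on low values and after GC and length correction (0.45). Tars2 (-0.30, limma adjusted p = 0.0743), Dars (0.47, limma adjusted p = 0.0758), Farsa (-0.30, limma adjusted p = 0.107) and Cars (-0.36, limma adjusted p = 0.1101) did not pass. Dars (0.47) and Tars2 (-0.33) passed after GC and length correction, and Dars with a common sum per sample (0.61). Without CDAHFD sham replicates 2 and 5, Dars (0.59), Tars (0.64) and Tars2 (-0.34) passed. Cars passed with array weights (-0.40). For the genes called in CDAHFD livers other than Eprs, a difference between the diets in the effect of RIC was therefore not shown in the reported fit. For Tars2 and Cars it depended on the setting.

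The diet comparison was also made within RIC livers. Between CDAHFD RIC and NC RIC livers 16 cytosolic genes were higher and 1 lower, and 8 mitochondrial genes were higher and 0 lower, where 70.3% of all tested genes passed, 63.6% higher and 6.68% lower. Gars (1.30), Vars (1.09), Sars (0.97) and Iars2 (0.81) were higher and Tars (-0.81) was lower under every alternative in which they were tested. Tars had 8.51 ± 1.31 FPKM in CDAHFD RIC and 15.7 ± 2.09 FPKM in NC RIC livers, 1.84-fold lower without overlap, where 53.3% of all tested genes were higher and 4.63% lower without overlap. Of the 24 genes called higher, 4 kept the call with median-ratio scaling, quantile normalization and GC and length correction alike, while 12, 14 and 17 turned negative under these. Farsa (0.46), Tars2 (0.45) and Eprs (0.43) were among those that turned, Eprs with all 3 settings and the others with the last 2.

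Deviations of single samples from their group mean showed which members moved together. Over 19 samples and 465 pairs of the tested members, the deviations correlated positively in 378 pairs, and the median Pearson r was 0.29 among cytosolic genes, 0.18 among mitochondrial genes and 0.22 between the classes, beside 0.06 over 559153 pairs from an even sample of all tested genes. These values describe samples that share library and depth effects, and no p is attached. The closest pair was Dars and Eprs (r = 0.86, Spearman rho = 0.76, and r = 0.81 without the 2 samples farthest out). Both are members of the multi-synthetase complex, but pairs within the complex differed widely, from Iars and Lars (r = 0.74) to Eprs and Mars (r = -0.005). Eprs and Tars (r = 0.80, rho = 0.80) and Dars and Farsb (r = 0.71, rho = 0.64) belonged to the same block as Dars and Eprs. Farsa followed Tars2 (r = 0.76, rho = 0.75) and not its own partner Farsb (r = -0.19, rho = -0.21).

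The 2 sets ran against each other. Dars and Tars2 had r = -0.62 (rho = -0.50) and Eprs and Farsa r = -0.58 (rho = -0.54), or -0.51 and -0.35 without the 2 samples farthest out. Tars and Tars2 had r = -0.44 (rho = -0.30), which was -0.19 without the 2 samples farthest out and so rests on them. Samples also differed in how their values ran with the GC content of the transcript, from a rank correlation of -0.33 in CDAHFD sham replicate 2 to 0.35 in CDAHFD sham replicate 1 across genes. The deviations of both sets followed that measure. The r was -0.79 for Dars, -0.67 for Eprs, -0.57 for Tars and -0.54 for Farsb, against 0.65 for Tars2 and 0.53 for Farsa. After correction for GC content and length, Dars and Eprs kept r = 0.86, Dars and Tars2 -0.59, and Farsa and Tars2 0.46. Eprs and Farsa then had -0.48 and Tars and Tars2 -0.53.

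**Figure D5:**
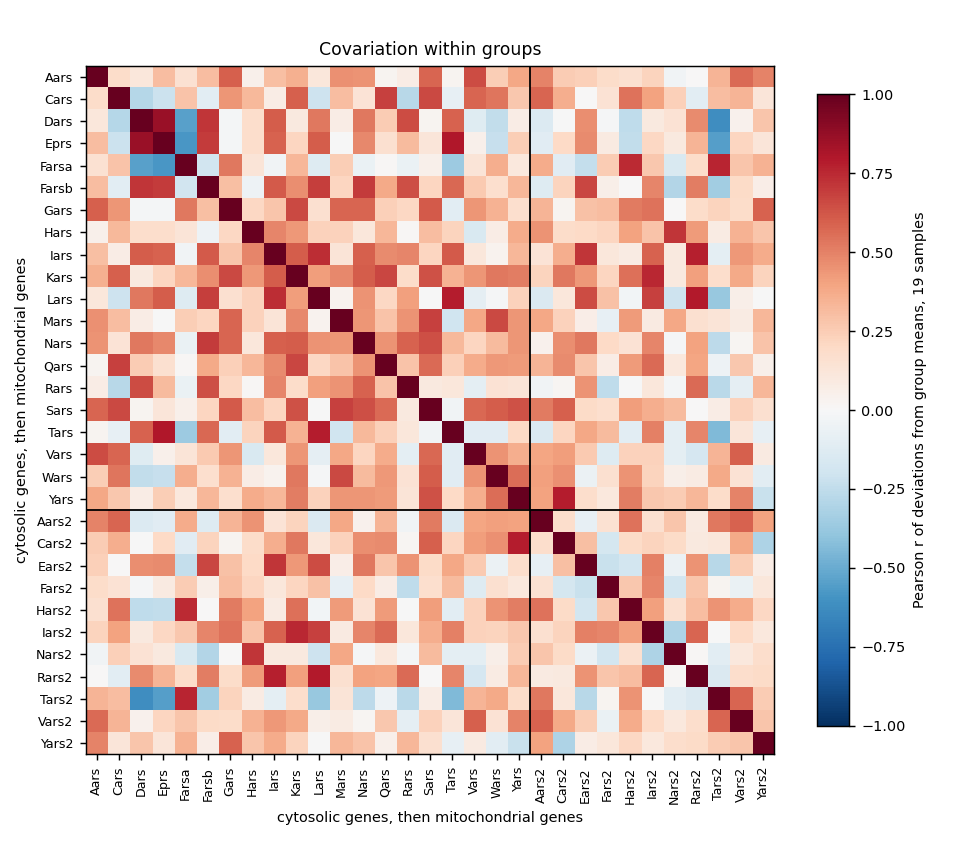
Pearson r between the deviations of each pair of the 31 tested genes from their group means over 19 samples, with cytosolic genes before mitochondrial genes and black lines between the classes. Most cells are red, Dars, Eprs, Farsb and Tars form a red block, and Farsa and Tars2 are blue against Dars and Eprs.

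Proteins that work with the synthetases were read from lists chosen by function. All 3 scaffold proteins of the multi-synthetase complex were higher in CDAHFD sham than in NC sham livers, where 63.9% of all tested genes were higher. Aimp2 had 5.07 ± 1.40 and 1.73 ± 0.538 FPKM (log2 difference 1.15), Eef1e1 6.84 ± 0.922 and 3.79 ± 0.588 FPKM (0.71), and Aimp1 6.37 ± 0.605 and 4.32 ± 0.192 FPKM (0.47). Eef1e1 lost its call with median-ratio scaling (0.16) and quantile normalization (0.19). Aimp1 turned negative with median-ratio scaling, quantile normalization and GC and length correction (-0.09, -0.05 and -0.07). Eef1e1 was lower in CDAHFD RIC livers, at 4.84, 4.60, 3.99 and 4.09 FPKM, than in CDAHFD sham livers, at 5.77 to 8.06 FPKM (-0.54 ± 0.12, limma adjusted p = 0.00301). Aimp2 (-0.40) and Aimp1 (-0.19) did not pass there.

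Cytosolic elongation factors were higher for 4 of 5 genes on CDAHFD, where 63.9% of all tested genes were higher. The other was Eef2, which was called lower with median-ratio scaling (-0.83) and after GC and length correction (-0.85). Eef2, which moves the ribosome along the message, was at 305 ± 10.4 FPKM in CDAHFD RIC and 235 ± 19.9 FPKM in CDAHFD sham livers (0.38 ± 0.10, limma adjusted p = 0.0109), while Eef1b2, Eef1d and Eef1g were lower. The trans-editing and proofreading proteins were higher for 4 of 4 genes on CDAHFD, with a median log2 difference of 0.44 beside 0.45 for all tested genes. Between CDAHFD RIC and CDAHFD sham livers 0 of 4 passed, where 8.72% of all tested genes were higher and 18.6% lower.

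Among 14 mitochondrial translation factors and amidotransferase subunits, 7 were higher and 1 lower on CDAHFD, where 63.9% of all tested genes were higher and 10.3% lower. Their median log2 difference was 0.19, beside 0.45 for all tested genes. Tsfm (4.06 ± 0.315 FPKM in CDAHFD sham and 1.53 ± 0.140 FPKM in NC sham livers) and Tufm (19.1 ± 2.57 and 9.78 ± 1.21 FPKM), elongation factors of mitochondrial translation, rose by 1.001 and 0.89 on the log2 scale. The call of Tufm was lost after GC and length correction (0.23). The subunits that complete glutaminyl-tRNA after Ears2 differed: Qrsl1 was higher, at 2.41 ± 0.604 FPKM in CDAHFD sham and 1.08 ± 0.346 FPKM in NC sham livers (0.71, limma adjusted p = 0.000122). The call of Qrsl1 was lost with quantile normalization (0.18) and after GC and length correction (0.19). Gatb (0.08) and Gatc (0.18) did not pass, and neither did Ears2 itself. In CDAHFD RIC against CDAHFD sham livers 1 of the 14 was higher and 1 lower, where 8.72% of all tested genes were higher and 18.6% lower.

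Genes of the amino acid response gave a mixed picture on CDAHFD. Of 25 listed, 15 were tested, and 7 were higher and 1 lower in CDAHFD sham than in NC sham livers, with a median log2 difference of 0.30. Over all tested genes 63.9% were higher and 10.3% lower, with a median of 0.45, so the share of the list that was higher was under that of all genes. Asns, the asparagine synthetase and a textbook ATF4 target, had 10.2 ± 2.08 FPKM in CDAHFD sham and 2.91 ± 1.75 FPKM in NC sham livers (1.63, limma adjusted p = 7.47e-05). Nupr1 (1.73), Slc3a2 (1.55) and Ddit3 (1.501) rose as well, Slc38a2 fell (-0.59), and Trib3 (0.30) did not pass. Atf4 itself was at 38.9 ± 6.40 FPKM in CDAHFD sham and 30.2 ± 2.30 FPKM in NC sham livers (0.34, limma adjusted p = 0.00914), a difference that turned negative with median-ratio scaling and with GC and length correction (-0.30 in both). Chac1 stayed under the filter at 0.275 ± 0.204 FPKM in CDAHFD sham and 0.672 ± 0.200 FPKM in NC sham livers.

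Kinases and regulators of this response, which include Ppp1r15a and Ppp1r15b of the phosphatase that ends it, were higher for 7 of 7 tested genes on CDAHFD, where 63.9% of all tested genes were higher. Eif2ak3, the kinase of the endoplasmic reticulum arm, rose most (4.84 ± 0.495 FPKM in CDAHFD sham and 1.42 ± 0.325 FPKM in NC sham livers), while Eif2ak4, the kinase that senses uncharged tRNA, was under the filter at 1.22 ± 0.121 and 0.697 ± 0.0562 FPKM. With RIC on CDAHFD, against sham, Ddit3 fell (-1.21, limma adjusted p = 2.94e-05), Trib3 was higher (0.57, limma adjusted p = 0.0440), and Atf4 (-0.19) and Asns (-0.25) did not pass. The Trib3 samples overlapped, and its call was lost in 12 of the 19 fits that left out 1 sample. Ddit3 shares 68 exonic bases with Mars on the opposite strand. Interferon gamma response genes, listed because of Wars, were higher for 10 of 10 tested on CDAHFD, where 63.9% of all tested genes were higher. Between CDAHFD RIC and CDAHFD sham livers 1 of 10 was lower, where 18.6% of all tested genes were lower.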

How the data were processed

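Liver RNA-seq of 19 samples was read from 1 table of FPKM made by the authors and used as deposited. For the FPKM program, the annotation and strandedness, the entry is: not given in the sources used here. Per the submitters' processing notes, which give no roles, the authors used HTSeq 0.13.5, HISAT2 2.2.1 and build mm10, beside Trimmomatic 0.38, FastQC 0.11.9, R 3.4.1 and DESeq2 1.18.1. The 3225 entries without a gene name (0.123% to 0.204% of FPKM) were left out.

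A pseudocount of 1 was added before log2, which understates changes of low genes. The filter was a mean of 1 FPKM over all samples, and the test was limma 3.58.1 in R 4.3.3 (group means, 15 residual degrees of freedom, trended eBayes, two-sided, Benjamini-Hochberg), which was tested on simulated data. Depth was estimated from the step between low values, few of which lay near whole multiples of it, and is approximate and weakly supported. Promoters came from RefSeq (GRCm38.p6) and positions from GENCODE on the same assembly, and figures were drawn with matplotlib 3.10.9. The meaning of shared replicate numbers is not stated, and samples were not paired in the reported fit. Every member was accounted for. Full statistics were given for members called with RIC or in the interaction and for the 5 cytosolic and 5 mitochondrial members with the largest diet differences. Members and lists were chosen with earlier results of these data known. Alternatives changed the pseudocount, filter, scaling, variance model, samples, replicate block or, added after seeing the data, GC and length. The plain FPKM ratio of paired enzymes was also added after seeing the data.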

Additional observations from a re-analysis of the deposited data

Results flagged for a closer look

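In 7 of 144 sets of 4 or 5 samples, 1 sample lay far from the others by Dixon's criterion, which chance gives in about 1 in 20 sets. Aars was high in NC RIC replicate 5 at 9.91 FPKM, against 7.81 to 8.39 FPKM in the other samples. Qars was high in NC sham replicate 5 at 4.53 FPKM, against 3.64 to 3.89 FPKM. Rars was low in NC sham replicate 3 at 8.40 FPKM, against 10.4 to 10.9 FPKM. Hars2 was low in NC RIC replicate 4 at 1.96 FPKM, against 2.81 to 3.09 FPKM. Rars2 was low in CDAHFD RIC replicate 1 at 4.96 FPKM, against 5.86 to 5.92 FPKM. Sars2 was high in CDAHFD RIC replicate 2 at 1.52 FPKM, against 0.849 to 0.940 FPKM. Yars2 was high in CDAHFD sham replicate 5 at 5.09 FPKM, against 3.99 to 4.19 FPKM.

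In the reported fit Eprs was the member whose RIC effect differed between the diets, by 0.55 on the log2 scale (limma adjusted p = 0.0429), with the limits given above.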

How the results depend on the processing

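Diet directions depended on scaling more than on any sample. Of the 24 members called higher between CDAHFD sham and NC sham livers, 13 turned negative with median-ratio scaling, 13 with quantile normalization and 15 after GC and length correction. Kars, Lars, Nars, Qars, Rars, Aars2, Vars2 and Yars2 were each among them under at least 1 of these, at -0.36 or above. For the genes given singly, the differences with median-ratio scaling were negative for Aars (-0.17), Iars (-0.18), Yars (-0.16), Fars2 (-0.029), Hars2 (-0.0906), Rars2 (-0.25), Atf4 (-0.30), Aimp1 (-0.0861), Gatb (-0.49) and Gatc (-0.42). With quantile normalization they were negative for Aars (-0.0169), Iars (-0.17), Wars (-0.0525), Yars (-0.20), Cars2 (-0.0596), Ears2 (-0.36), Fars2 (-0.0719), Hars2 (-0.11), Rars2 (-0.23), Aimp1 (-0.0546), Gatb (-0.43) and Gatc (-0.28). After GC and length correction they were negative for Aars (-0.12), Iars (-0.0802), Wars (-0.15), Yars (-0.29), Cars2 (-0.20), Ears2 (-0.53), Fars2 (-0.21), Hars2 (-0.0365), Rars2 (-0.0552), Atf4 (-0.30), Aimp1 (-0.0741), Gatb (-0.46) and Gatc (-0.36). For CDAHFD RIC against NC RIC livers 12, 14 and 17 of the 24 members called higher turned negative, among the genes given singly Eprs (-0.12, -0.0441 and -0.0491 in the same order of settings) and, with the last 2 settings, Farsa (-0.0432 and -0.13) and Tars2 (-0.0417 and -0.0716). Of all called genes in the first comparison 86.1% were higher as reported, against 43.9%, 47.6% and 48.4%. For CDAHFD RIC against CDAHFD sham livers 31.9% of calls were higher, against 58.5%, 50.5% and 47.8%, and 55.5% with a common sum per sample. The cause was not tested.

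Counts of called members moved as follows, cytosolic then mitochondrial. Between CDAHFD sham and NC sham livers (17 and 9 as reported) they were 11 and 2 under median-ratio scaling, under quantile normalization 11 and 4, 10 cytosolic after GC and length correction, and 10 and 1 with a filter of 5 FPKM, where fewer genes were tested. Between CDAHFD RIC and CDAHFD sham livers (6 and 3) they were 3 and 0 with that filter, and 1 mitochondrial gene was called with a common sum, median-ratio scaling, array weights or without CDAHFD sham replicates 2 and 5. For CDAHFD RIC against NC RIC livers (17 and 8) they were 8 and 4 with median-ratio scaling, 6 cytosolic with quantile normalization, 8 cytosolic after GC and length correction and 10 and 1 with the filter of 5 FPKM. For the interaction (1 and 0) the cytosolic count was 0 with no filter, 2 with a common sum or array weights and 3 without CDAHFD sham replicates 2 and 5, and the mitochondrial count was 1 without these samples and 1 after GC and length correction.

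Leaving out each of the 19 samples in turn gave 16 to 17 cytosolic and 8 to 10 mitochondrial calls for CDAHFD sham against NC sham, 3 to 9 and 1 to 4 for CDAHFD RIC against CDAHFD sham, 0 and 0 for NC RIC against NC sham, 16 to 18 and 6 to 8 for CDAHFD RIC against NC RIC, and 0 to 3 and 0 to 1 for the interaction. Of the 88 gene results, 1 changed sign in these fits, Tars between NC RIC and NC sham livers (-0.0319 to 0.0906), which was called in none of them. The labels do not say what shared replicate numbers mean. Deviations of same-numbered samples correlated weakly, at -0.17 to 0.18 in 27 pairs, with 6 above 0.1. The median was 0.026, beside 0.004 for samples of other numbers. With the replicate block the counts were 17 and 9, 5 and 2, 0 and 0, 17 and 7, and 1 and 0 in the same order. GC and length correction and the plain ratio of paired enzymes were chosen after seeing the data. Depth is only estimated, and the 5 members under 1 FPKM rest on few reads.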

Other observations

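The share of all FPKM held by the 36 genes was small, 0.0538% ± 0.00379 in CDAHFD RIC, 0.0517% ± 0.00519 in CDAHFD sham, 0.0341% ± 0.00341 in NC RIC and 0.0374% ± 0.00324 in NC sham livers. Differences ran with the GC content of the transcript across genes: between CDAHFD sham and NC sham livers the rank correlation was 0.25 over 9221 genes and 0.35 over the 31 members, and between CDAHFD RIC and CDAHFD sham livers -0.26 and -0.43. Genes are not independent replicates, and the part of GC content in the differences was not tested beyond the corrected values given below.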
